A study of Homo sapiens with 16 samples.

Results

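The 78 genes described here encode proteins of the mitochondrial ribosome. They were taken from the deposited tables as the protein-coding genes whose symbol starts with MRPL or MRPS followed by a digit and that stood in all 4 tables. They made up 78 of 23396 genes listed in any table, 49 of them with an MRPL symbol and 29 with an MRPS symbol, and no gene with such a symbol was missing from any table. By the unified names of ribosomal proteins, 51 belong to the large subunit and 26 to the small subunit. MRPS18A and MRPS30 are counted with the large subunit, where their proteins sit in spite of the symbol. MRPS36 is now assigned to the 2-oxoglutarate dehydrogenase complex and not to the ribosome, and was kept as the rule chose it.

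Poly(A) RNA was sequenced from U2OS, a line established from a human osteosarcoma that keeps functional p53. The cells carried either siControl, a control siRNA, or siRFX7, which targets RFX7, a transcription factor of the winged-helix RFX family. For 24 h they were given 10 µM Nutlin-3a, which blocks the binding of MDM2 to p53, or its solvent DMSO. The 4 groups were siControl with DMSO, siControl with Nutlin-3a, siRFX7 with DMSO and siRFX7 with Nutlin-3a, with 4 libraries each and 16 in all. All groups were of the same line and all had received a siRNA, and the sequence of the siRNA was not given in the sources used here. The comparisons ask what RFX7 knockdown changes with and without active p53, and whether the response to p53 activation depends on RFX7.

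The values are those of the authors' 4 comparisons of 2 groups, which hold no value of a single library. Errors are therefore the standard errors (SE) of the authors' fits over 4 against 4 libraries. A gene is called lower or higher where the deposited adjusted p, taken over the whole table, is under 0.05. Nothing in the labels says that the 4 libraries of a group came from separate cultures, so these p-values measure the spread between libraries only. Group levels were put on a common scale from the base means (mean normalised read counts) and fold changes, and the tables agreed on them to within 0.61%.

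Mitochondrial ribosomes translate the few mRNAs made from mitochondrial DNA, all of which encode core subunits of the respiratory chain and the ATP synthase. Their RNAs are mitochondrial transcripts, whereas every protein of both subunits is encoded in the nucleus, made in the cytosol and imported. Some of these proteins have a counterpart in bacterial ribosomes and others are specific to mitochondria. Here 16 small subunit and 30 large subunit genes encode proteins with a bacterial homologue, and 10 and 21 encode mitochondria-specific proteins. The 78 genes lie on 21 chromosomes.

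The sequences shown first are those on which the gene with the largest fall can be set beside RFX7 itself. MRPS35 encodes mS35, a mitochondria-specific protein of the small subunit. The heptamer GTATCTA had been picked earlier from a scan of these same knockdown fold changes, so its presence is a description and not independent evidence. It occurs in the coding sequence and the 3′ UTR of RFX7. Among the 78 genes it was found in the longest 3′ UTR of 3, namely MRPS35, MRPL19 and MRPS7, which is 3.85% against 7.82% of 13755 protein-coding genes, whose 3′ UTRs were longer (median 1379 bases, against 494 for the members). MRPS35 was the sole member that also carried the heptamer in its coding sequence, and 51 of the 13755 genes (0.371%) carried it in both regions. The windows of 30 bases, from GENCODE 29 transcripts on GRCh38, are printed 5′ to 3′ in the mRNA sense, with the heptamer in capitals.
RFX7 coding sequence: accctctatccaGTATCTAatatcccacga
RFX7 3′ UTR: atgtagcacactGTATCTAaagacatatgt
MRPS35 3′ UTR: tatatgtgatcaGTATCTAatttgatataa
MRPS35 coding sequence: cgattatgcagtGTATCTActaacagtgtt
MRPS7 3′ UTR: gagagtgaagaaGTATCTAagtgacatctg
MRPL19 3′ UTR: atccagcactggGTATCTAttttcttacct

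The site in the MRPS35 3′ UTR shared a run of 11 bases, CAGTATCTAAT, with the site in the RFX7 coding sequence. The MRPS7 site shared 9 bases with it, and the MRPL19 site shared the 7 of the heptamer. The run of 11, looked for with the fold changes already known, was in the longest 3′ UTR of 9 of 13755 protein-coding genes. MRPS35, whose site defined the run and whose fall was known, is among these 9, so the counts that follow are a description. All 9 had a negative log2 fold change with siRFX7 under DMSO and 7 of 9 under Nutlin-3a, in the tables deposited by the authors, and 5 of 9 were called lower in each table. Over the 13755 genes 6656 and 6669 had a negative value, and 19.6% and 17.8% were called lower. Of the 1076 genes with the heptamer in the 3′ UTR, 44.1% and 38.7% were called lower in the authors' deposited tables, the same fold changes from which it was picked. MRPS35 had the most negative value of the 9 in each. The hexamer GACGTA, from the same earlier scan, was in the 3′ UTR of 0 of 78 members, against 4.67% of 13755 genes.

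RFX7 set the sign of the knockdown tables, and CDKN1A and MDM2 that of the Nutlin-3a tables, so the directions of these genes check no label and their sizes are given as a description. In the authors' deposited tables RFX7 stood at 18.6% of its siControl level under DMSO and at 19.4% under Nutlin-3a. The p53 targets CDKN1A and MDM2 rose with Nutlin-3a in siControl by 3.24 ± 0.04 (SE) and 2.89 ± 0.04 on the log2 scale. The line's mesenchymal genes VIM, FN1, SPARC and COL1A1 had base means between 19572 and 84577 normalised counts in the authors' deposited table for Nutlin-3a in siControl, whereas PTPRC, PECAM1 and CDH5, of leukocytes and endothelium, had base means of 2.66 to 6.94. Of the other markers looked at, RUNX2 had 432, SYP 466, EPCAM 191 and CDH1 121 in the same table deposited by the authors, and CD3E and ALB were not listed. The sum of base means over a table ran from 27946400 to 35311100 normalised counts.

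MRPS35 had by far the largest change of the 78 genes. Its group level was 2904 normalised read counts in siControl with DMSO, 2397 in siControl with Nutlin-3a, 928 in siRFX7 with DMSO and 813 in siRFX7 with Nutlin-3a. Both siRFX7 groups were low and both siControl groups high, and Nutlin-3a moved the level little beside that. MRPS35 (ENSG00000061794) lies on chromosome 12, chr12:27710773-27756295, plus strand, and shares no exonic base with another gene. In the authors' deposited tables its log2 fold change with siRFX7 was -1.65 ± 0.05 (SE) under DMSO and -1.56 ± 0.05 under Nutlin-3a, which left 31.9% and 33.9% of the siControl level. These falls are a description, since the gene set was proposed with the fall of MRPS35 known. Among the 13755 protein-coding genes it had the 9th most negative value under DMSO and the 15th under Nutlin-3a. By group level it was the 20th of the 78 genes in siControl with DMSO and the 56th in siRFX7 with DMSO. The Nutlin-3a response of MRPS35, which the choice did not use, was a fall in both backgrounds, with -0.28 ± 0.05 (SE; DESeq2 adjusted p = 2.85e-08) in siControl and -0.19 ± 0.06 (adjusted p = 0.00757) in siRFX7 in the authors' deposited tables.

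MRPL19 and MRPS7, the other members with the heptamer in a 3′ UTR, changed little. MRPL19 encodes a large subunit protein and MRPS7 a protein of the small subunit head. Both were called lower with siRFX7 in the authors' deposited table for DMSO, MRPL19 at -0.17 ± 0.06 (SE; DESeq2 adjusted p = 0.0106) and MRPS7 at -0.16 ± 0.04 (adjusted p = 0.00104). Under Nutlin-3a neither passed, at -0.02 ± 0.06 and -0.08 ± 0.06 in the authors' deposited table. The heptamer of MRPS7 was not in the 3′ UTR of its transcript with the longest coding sequence.

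With siRFX7 under DMSO, more of the genes were lower than higher. The authors' deposited table called 29 of 78 lower, beside 17.5% of all 19511 genes, and 7 of 78 higher, beside 19.9%. The median log2 fold change of the 78 genes was -0.06, against 0.01 over all genes whose base mean was 100 or more, of which 22.6% were called lower. For Nutlin-3a the authors' deposited table gave 28 of 78 lower, beside 15.4% of 20335 genes, and 4 of 78 higher, beside 17.2%. The median was -0.10, against 0.01 over genes whose base mean was 100 or more, of which 20.6% were called lower. Leaving out MRPS35 gave 28 and 27 of 77 lower. With a log2 size of at least 0.25 required as well, 14 were lower under DMSO and 12 under Nutlin-3a, MRPS35 among them in each, and 1 and 2 were higher.

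The comparisons of siRFX7 with siControl under DMSO and under Nutlin-3a share no library. Of the 29 and 28 genes called lower, 21 were called in both, which is 72.4% and 75% of each list. MRPL35, MRPL39, MRPL45 and MRPL47 were higher in both, and 0 genes were called in opposite directions. The sign was the same for 64 of 78. Across the 78 genes Pearson's r of these fold changes was 0.893, and 0.786 without MRPS35. Genes are not independent replicates, and all values of a table come from the same 8 libraries. The overlap, shared signs and r were computed for the members only. Whether they differ from those over all genes was not tested.

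**Figure D1:**
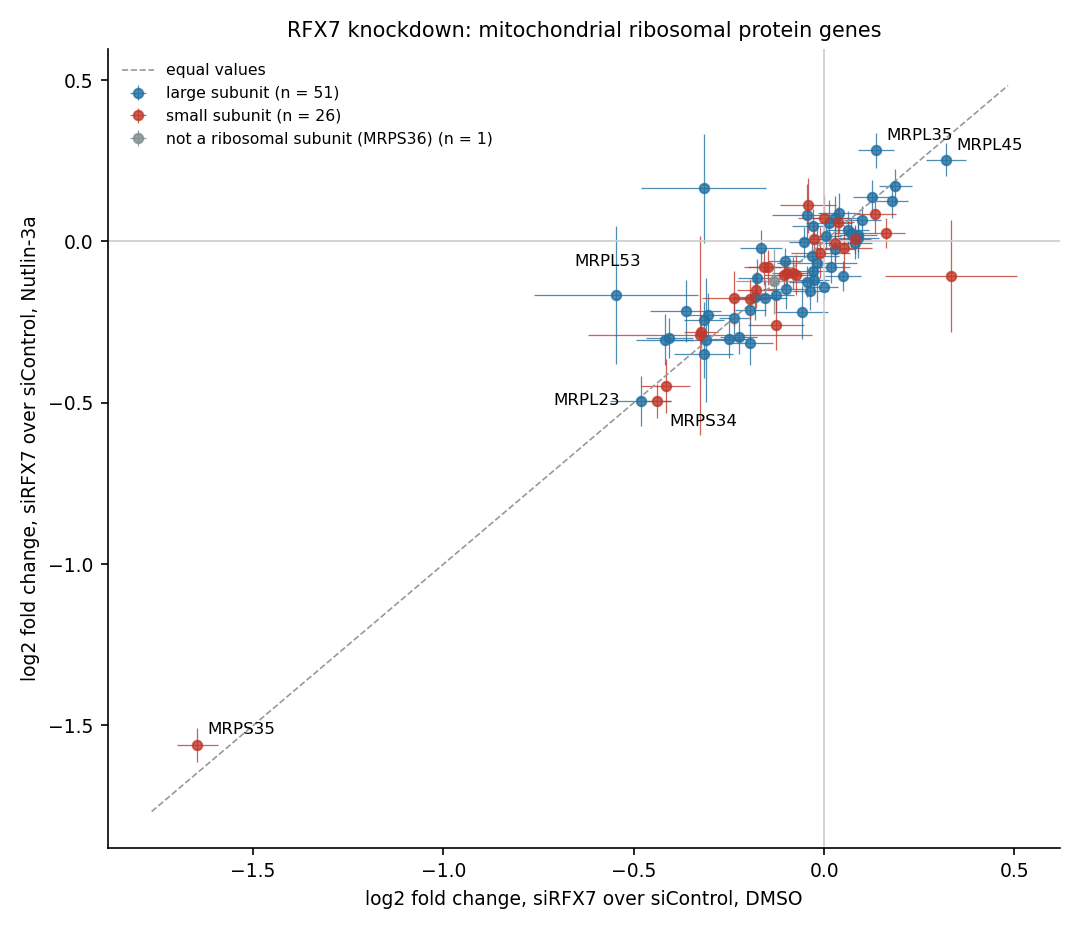
Log2 fold change of each of the 78 genes with siRFX7 over siControl under DMSO (x axis) and under Nutlin-3a (y axis), from the authors' deposited tables, with bars of 1 SE. Red points are small subunit genes and blue points large subunit genes. MRPS35 stands alone at -1.65 and -1.56, and the other genes lie between -0.55 and 0.33 on the x axis, spread along the line of equal values.

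Small subunit genes called lower with the knockdown were found in both classes, at unlike shares. Of the 10 for mitochondria-specific proteins, the authors' deposited tables called 6 lower and 0 higher under each treatment, or 5 of 9 lower without MRPS35. Those with a bacterial homologue, 16 in all, gave 4 lower and 2 higher for DMSO and 3 lower and 0 higher for Nutlin-3a. Their shares lower, 25% and 18.8%, were near the 22.6% and 20.6% of all genes whose base mean was 100 or more. The difference between these classes was not tested.

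MRPS34 encodes mS34, a protein needed for a stable small subunit that is mutated in a form of Leigh syndrome. Its group level was 5464 normalised read counts in siControl with DMSO, 3848 in siControl with Nutlin-3a, 4026 in siRFX7 with DMSO and 2729 in siRFX7 with Nutlin-3a. The level was highest with neither agent, and lowest with both, at 49.9% of siControl with DMSO. In the authors' deposited tables the knockdown value of MRPS34 was -0.44 ± 0.04 (SE; DESeq2 adjusted p = 1.68e-29) under DMSO and -0.50 ± 0.05 (adjusted p = 2.19e-19) under Nutlin-3a. MRPS34 (ENSG00000074071) lies at chr16:1771890-1773155, minus strand.

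MRPS26, for the mitochondria-specific mS26, was likewise highest in the first and lowest in the last group, with group levels of 1499, 1165, 1123 and 855 normalised read counts in siControl with DMSO, siControl with Nutlin-3a, siRFX7 with DMSO and siRFX7 with Nutlin-3a. Its knockdown values in the authors' deposited tables were -0.42 ± 0.07 (SE) under DMSO and -0.45 ± 0.08 under Nutlin-3a. MRPS25 and MRPS22 were lower in both tables as well, at -0.32 ± 0.04 and -0.18 ± 0.05 under DMSO. In the authors' deposited tables MRPS31 was called lower under DMSO (-0.24 ± 0.08) and MRPS33 under Nutlin-3a (-0.26 ± 0.08). MRPS18B, MRPS23 and MRPS27, the last a pentatricopeptide repeat protein, were called in neither table. Among small subunit genes with a bacterial homologue, MRPS21 and MRPS16 were lower in both tables, at -0.19 ± 0.05 and -0.10 ± 0.04 (SE) under DMSO in the authors' deposited table. MRPS2, for the uS2 homologue, was higher under DMSO (0.16 ± 0.05; DESeq2 adjusted p = 0.00414) and not called under Nutlin-3a (0.03 ± 0.05).

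**Figure D2:**
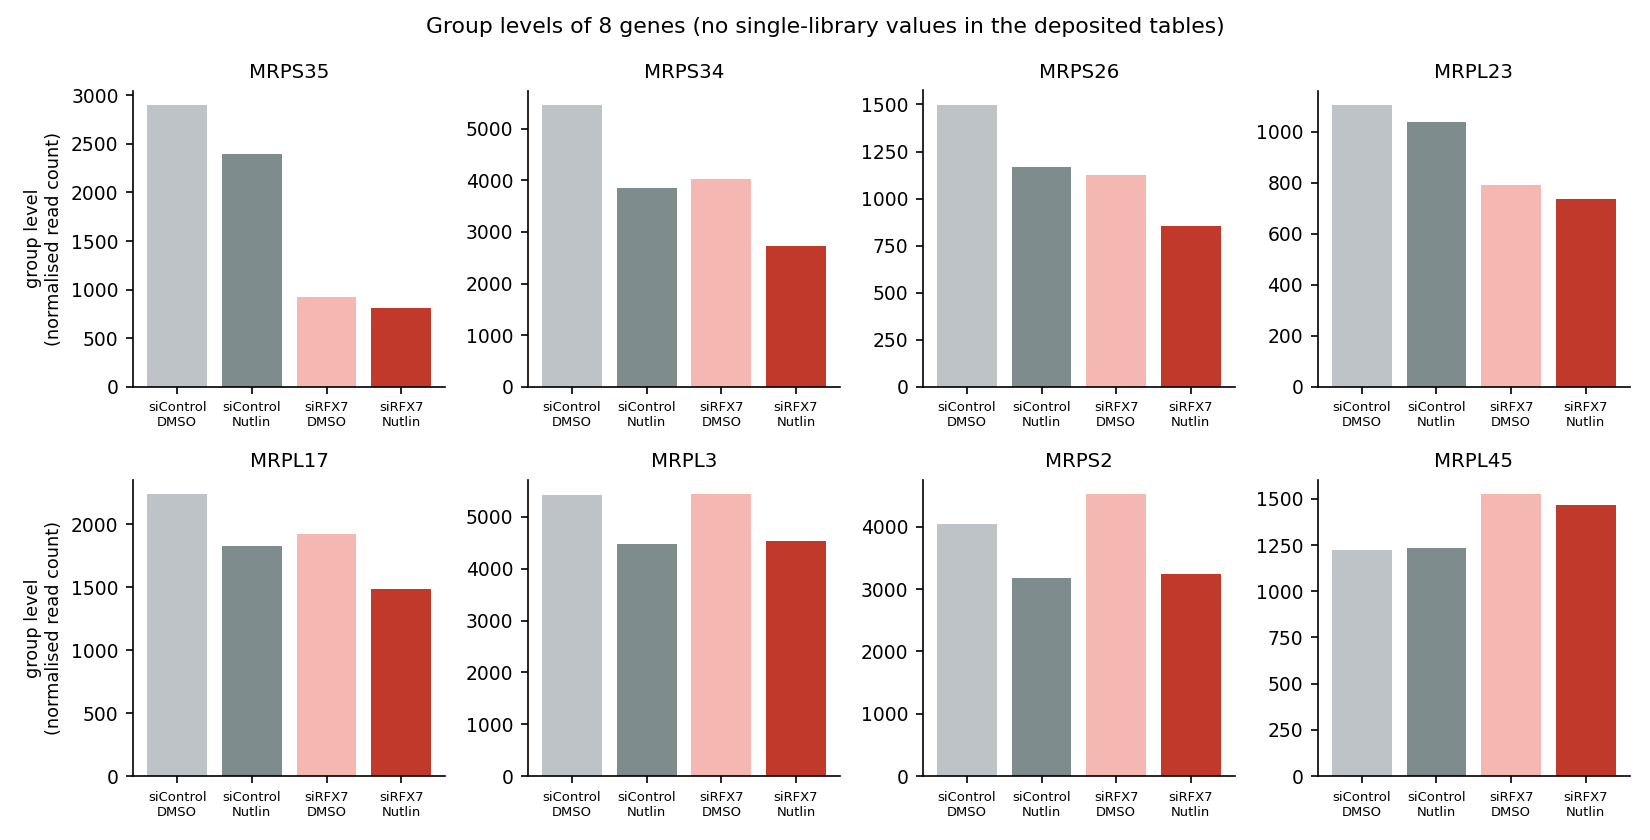
Group level (mean normalised read count of 4 libraries, y axis from 0) of 8 genes in the 4 groups, on the scale of the authors' deposited table for Nutlin-3a in siControl. No error bars are drawn, since the tables hold no single libraries; the SEs of the fold changes are in the text. MRPS35 is low in both siRFX7 groups, MRPS34 is lowest in siRFX7 with Nutlin-3a at 2729, and MRPL45 is higher in both siRFX7 groups.

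Large subunit genes moved in both directions. The authors' deposited knockdown tables called 19 of 51 lower with either treatment, 5 higher for DMSO and 4 higher for Nutlin-3a. Those with a bacterial homologue gave 13 and 15 of 30 lower, and the mitochondria-specific ones 6 and 4 of 21. The latter are 28.6% and 19%, beside 22.6% and 20.6% of all genes whose base mean was 100 or more. MRPL23 encodes the homologue of uL23, which sits at the exit of the peptide tunnel. Its group level was 1106 and 1036 normalised read counts in siControl with DMSO and with Nutlin-3a, and 792 and 736 in siRFX7. Both siRFX7 levels lay below both siControl levels. The knockdown values were -0.48 ± 0.08 (SE; DESeq2 adjusted p = 1.81e-08) and -0.49 ± 0.08 (adjusted p = 4.13e-09) in the authors' deposited tables.

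MRPL1, whose bacterial homologue forms the L1 stalk, had knockdown values of -0.42 ± 0.07 (SE) and -0.30 ± 0.08 under DMSO and Nutlin-3a in the authors' deposited tables. MRPL33 had -0.41 ± 0.06 and -0.30 ± 0.06, but 78.9% of its exonic bases were its own, the rest being shared on the strand with BABAM2. MRPL53 had the most negative value of the large subunit, -0.55 ± 0.22 (DESeq2 adjusted p = 0.0319) under DMSO, and -0.17 ± 0.21 under Nutlin-3a, where it was not called. MRPL53 is a weakly expressed gene, at 76.3 normalised read counts in siControl with DMSO, with 54.8% of its exonic bases not shared with CCDC142, so its value is uncertain. MRPL51, with the highest level of all, 7607 normalised read counts in siControl with DMSO, was lower, at -0.24 ± 0.04 and -0.24 ± 0.05 in the authors' deposited tables.

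Of the genes that rose with the knockdown, MRPL45 had the largest value under DMSO and MRPL35 under Nutlin-3a. The protein of MRPL45 lines the tunnel exit and holds the ribosome at the inner membrane. The gene's group level was 1223 and 1233 normalised read counts in siControl with DMSO and with Nutlin-3a, and 1527 and 1469 in siRFX7. Both siRFX7 levels lay above both siControl levels. The authors' deposited tables gave 0.32 ± 0.05 (SE; DESeq2 adjusted p = 1.56e-08) and 0.25 ± 0.05 (adjusted p = 7.58e-06). MRPL39 rose by 0.19 ± 0.04 and 0.17 ± 0.05 in the same tables of the authors. MRPL35 rose by 0.14 ± 0.05 under DMSO and 0.28 ± 0.05 under Nutlin-3a. MRPL43 was higher under DMSO (0.18 ± 0.04) and at 0.13 ± 0.05 (adjusted p = 0.0563) under Nutlin-3a was not called, in the authors' deposited tables. The pseudogene MRPL45P2 is listed at 7.6% of the base mean of MRPL45, so reads could be split between them.

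**Figure D3:**
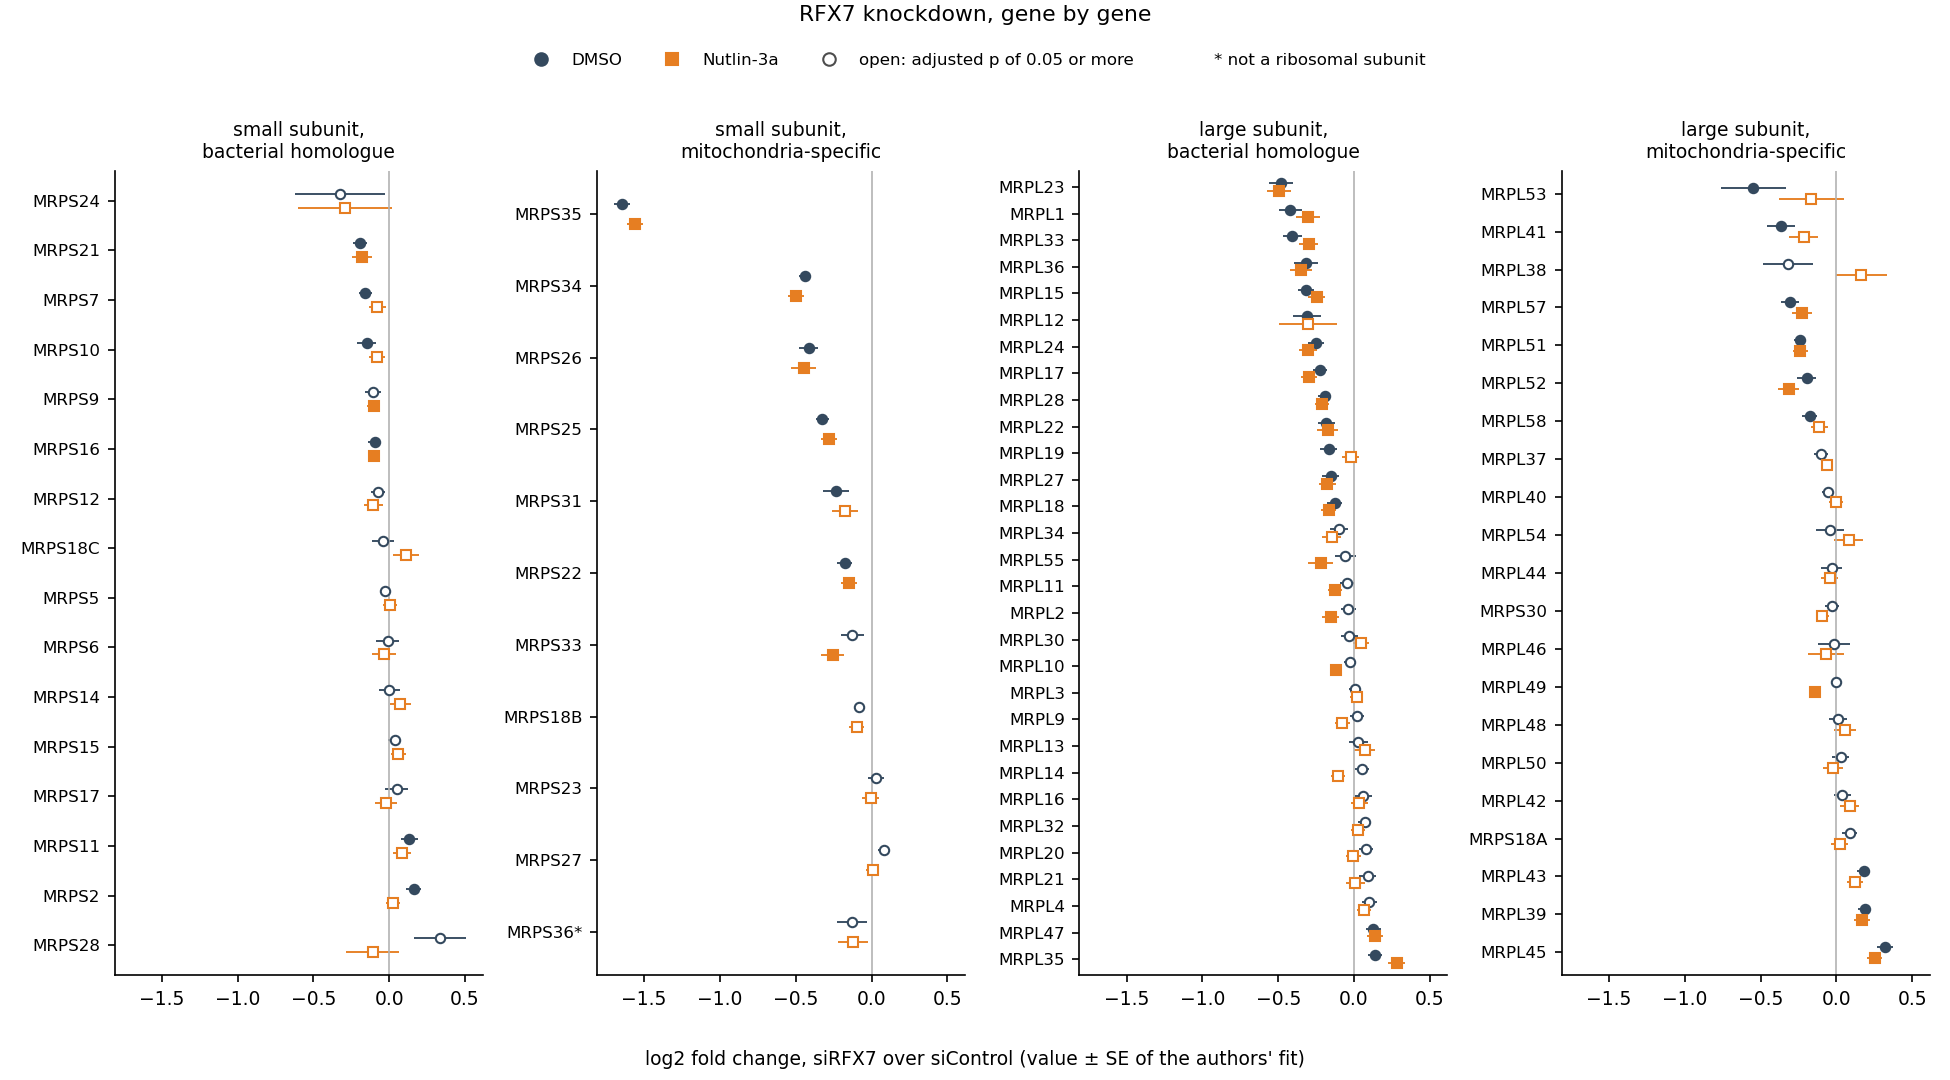
Log2 fold change with siRFX7 over siControl of every gene (x axis, bars of 1 SE), by subunit and class, with circles for DMSO and squares for Nutlin-3a. Filled symbols have a deposited adjusted p under 0.05 in the authors' tables. Filled symbols left of 0 include 6 of 10 mitochondria-specific small subunit genes in each treatment, and MRPL45, MRPL39, MRPL47 and MRPL35 stand right of 0 in both.

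With Nutlin-3a, nearly all called genes were lower. In siControl the authors' deposited table gave 38 of 78 lower, beside 19.6% of 23353 genes, and 2 higher, beside 18.3%. In siRFX7 it gave 37 lower, beside 20.3% of 21382 genes, and 0 higher, beside 18.7%, with 0 higher at an unadjusted p under 0.05 as well. The median was -0.15 in each table, against -0.03 over genes whose base mean was 100 or more, of which 31.6% and 31.5% were called lower. Centred on that median, 31 were lower and 6 higher in siControl, and 33 lower and 0 higher in siRFX7. The 2 Nutlin-3a tables share no library. They called 31 genes lower in common, 81.6% and 83.8% of each list, with r = 0.659 over the 78 genes. These values, too, were computed for the members only and not compared with all genes.

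Both subunits and both classes were among the genes that fell. In siControl 13 of 26 small subunit and 25 of 51 large subunit genes were lower, and in siRFX7 12 of 26 and 25 of 51, in the authors' deposited tables. Small subunit genes with a bacterial homologue gave 37.5% and 31.3% lower in siControl and siRFX7. That is near the 31.6% and 31.5% of all genes whose base mean was 100 or more. MRPS34 had the most negative value of the 78 in both, at -0.51 ± 0.05 (SE; DESeq2 adjusted p = 2.84e-23) in siControl and -0.56 ± 0.04 (adjusted p = 5.11e-41) in siRFX7. Next in siControl came MRPL54 at -0.37 ± 0.09 and MRPS26 at -0.36 ± 0.07, and in siRFX7 MRPS26 stood at -0.39 ± 0.08, in the authors' deposited tables. MRPS2 had group levels of 4045 and 4526 normalised read counts with DMSO in siControl and siRFX7, and of 3184 and 3243 with Nutlin-3a. Both Nutlin-3a levels lay below both DMSO levels, and the authors' deposited tables gave -0.35 ± 0.05 (SE; DESeq2 adjusted p = 1.36e-12) and -0.48 ± 0.05 (adjusted p = 1.18e-20).

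Some genes fell with Nutlin-3a in both tables and were called in neither knockdown table. MRPL3, for the homologue of uL3 near the peptidyl transferase centre, had group levels of 5423 and 5446 normalised read counts with DMSO in siControl and siRFX7, and of 4487 and 4541 with Nutlin-3a. Its Nutlin-3a values were -0.27 ± 0.04 and -0.26 ± 0.04 (SE), and its knockdown values were 0.01 ± 0.04 and 0.02 ± 0.04, in the authors' deposited tables. MRPL4, MRPL37 and MRPS5 had Nutlin-3a values of -0.23 ± 0.05, -0.31 ± 0.04 and -0.26 ± 0.04 in siControl in the authors' deposited table, and likewise were called in neither knockdown table. The pseudogene MRPL3P1 is listed at 17.4% of the base mean of MRPL3, so the split of reads between them is uncertain. MRPL24, MRPL27 and MRPL28 had the other order, lower in both knockdown tables and called in neither Nutlin-3a table; MRPL28 had -0.19 ± 0.04 and -0.21 ± 0.05 with siRFX7 and 0.08 ± 0.04 and 0.06 ± 0.05 with Nutlin-3a, in the tables deposited by the authors. Apart from MRPL37, the genes of this paragraph were chosen after their values were seen, and knockdown and Nutlin-3a comparisons share groups of libraries.

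The 2 genes that rose with Nutlin-3a in siControl were MRPS33, by 0.25 ± 0.07 (SE; DESeq2 adjusted p = 0.00238), and MRPL49, by 0.20 ± 0.04 (adjusted p = 1.64e-07), in the authors' deposited table. In siRFX7 they stood at 0.11 ± 0.08 and 0.06 ± 0.04 and were not called.

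**Figure D4:**
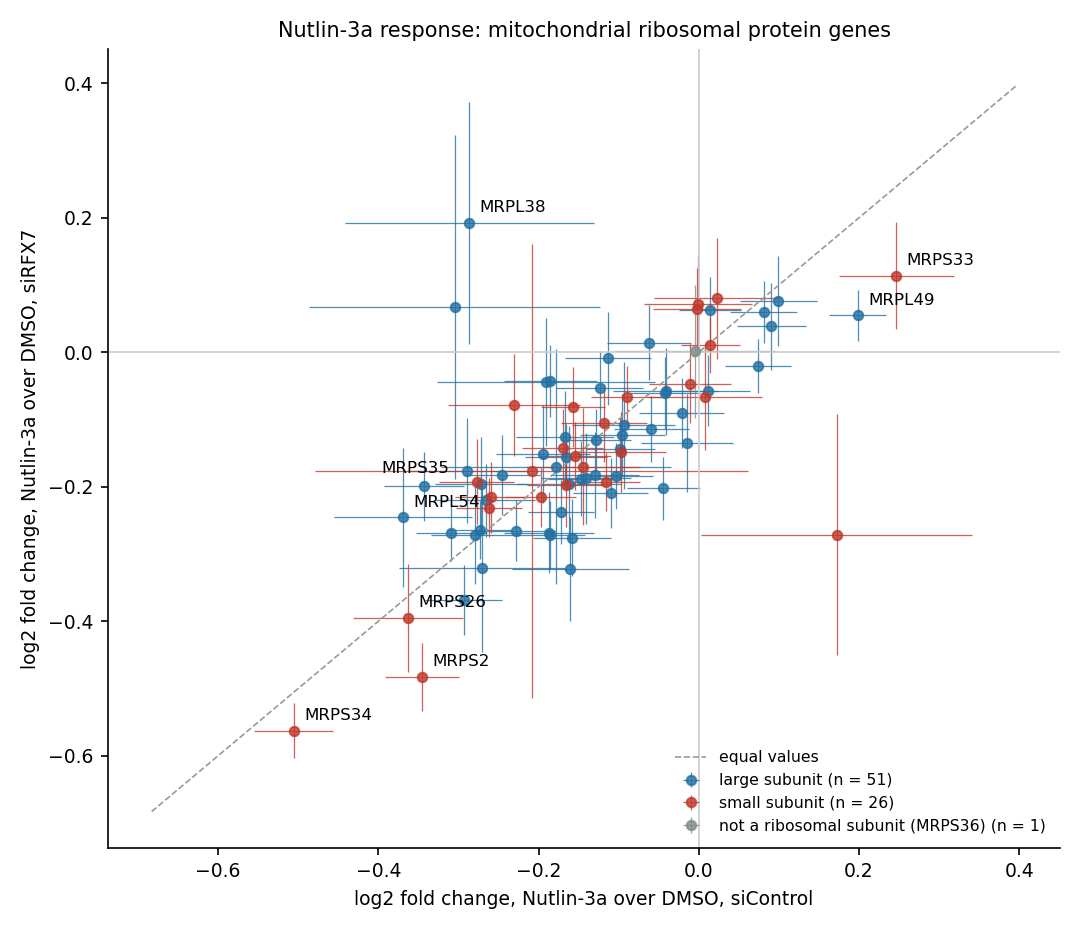
Log2 fold change with Nutlin-3a over DMSO of each gene in siControl (x axis) and in siRFX7 (y axis), from the authors' deposited tables, with bars of 1 SE. Most points lie below and left of 0, MRPS34 lies lowest at -0.51 and -0.56, and MRPS33 and MRPL49 lie right of 0 at 0.25 and 0.20.

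The Nutlin-3a responses in siRFX7 and siControl were not shown to differ for any of the genes. The difference of the authors' deposited log2 fold changes, tested with a two-sided normal test and Benjamini-Hochberg adjustment over 21339 genes, called 0 of 78 lower, beside 0.764% of all genes, and 0 of 78 higher, beside 0.173%. When the statistics were divided by their robust SD, 0 were called. At an unadjusted p under 0.05 there were 3 lower and 2 higher of the 78. That is near the share of all genes in either direction, 6.32% (9.22% of those whose base mean was 100 or more). The lower ones were MRPL49 (-0.14 ± 0.05 SE; adjusted p = 0.282), MRPL14 (-0.16 ± 0.07) and MRPS2 (-0.14 ± 0.07), and the higher ones were MRPL35 (0.14 ± 0.07) and MRPL38 (0.48 ± 0.24). For MRPS35 the difference was 0.08 ± 0.08. The members' responses were small, with a median of -0.15 in each background, so losing a typical response could go uncalled. MRPL49, at 0.20 in siControl and 0.06 in siRFX7, was not called. The count of 0 therefore does not show that the responses were equal. The median over the 78 genes was -0.02, and the values ran from -0.44 to 0.48. Both ends belonged to weakly expressed genes, MRPS28 and MRPL38, with group levels of 78.1 and 108 normalised read counts in siControl with DMSO.

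Summed over the 78 genes, the group level was 162086 normalised read counts in siControl with DMSO. It was 90.8% of that in siControl with Nutlin-3a, 94.1% in siRFX7 with DMSO and 84.8% in siRFX7 with both. Without MRPS35 these became 91%, 95.2% and 85.8%. The small subunit sum was at 88.1%, 90.8% and 80%, and the large subunit sum at 92.3%, 95.8% and 87.3%, in the same order. As a share of the counts of all genes in the 4 tables the sum went from 0.453% to 0.423%, 0.408% and 0.38%. Single-library sums are not in the tables, so these sums carry no error. In bulk RNA, fewer transcribing cells and less RNA per cell cannot be told apart.

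Levels per kb of exonic sequence differed widely between the genes. In siControl with DMSO they ran from 12.6 to 4980 normalised read counts per kb, with a median of 664. MRPS34 (4980), MRPL51 (4905) and MRPL37 (2587) were highest per kb, and MRPL46 (38.2), MRPL38 (29.5) and MRPS24 (12.6) lowest. Reads that also match another gene can be lost in counting, and 7 members had under 80% of their exonic bases to themselves on the strand. MRPS24 (76.8% unshared; it overlaps the readthrough gene URGCP-MRPS24), MRPL38 (62.5%) and MRPL12 (31.8%) were among them, so their levels are uncertain. The kit was stranded, but whether counting used strand was not given in the sources used here. With genes on either strand, 63.1% of the exonic bases of MRPL43 and 68.7% of those of MRPL51 were unshared. Among the 62 members with no shared base on the strand, 24 were lower with siRFX7 under DMSO and 33 with Nutlin-3a in siControl, in the authors' deposited tables.

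Shorter genes tended to have lower knockdown values, more evenly under DMSO than under Nutlin-3a. Under DMSO, the 8 members with an exonic length of up to 1.2 kb had a median log2 fold change of -0.24 in the authors' deposited table, and the 22 between 1.2 and 2 kb had -0.12. The 11 members over 5 kb had -0.03. Under Nutlin-3a the medians were -0.18 up to 1.2 kb, -0.16 from 1.2 to 2 kb and -0.08 from 2 to 3 kb. They were 0.002 from 3 to 5 kb and -0.07 over 5 kb. There 36.4% of the members over 5 kb were called lower, and 37.5% of those up to 1.2 kb. Spearman's rho of the knockdown value with length was 0.27 over the 78 genes under DMSO and 0.33 under Nutlin-3a, and 0.12 and 0.17 over 11241 and 11305 other protein-coding genes whose base mean was 100 or more. For Nutlin-3a in siControl and siRFX7 it was -0.02 and -0.01 over the 78 genes. The members are short, with a median exonic length of 2539 bases against 5150 for protein-coding genes. Other genes of up to 1.2 kb had a median of -0.03 under DMSO, and 32% of the 153 were called lower, against 19.3% of 6170 genes over 5 kb. The part of length in the knockdown counts was not tested.

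**Figure D5:**
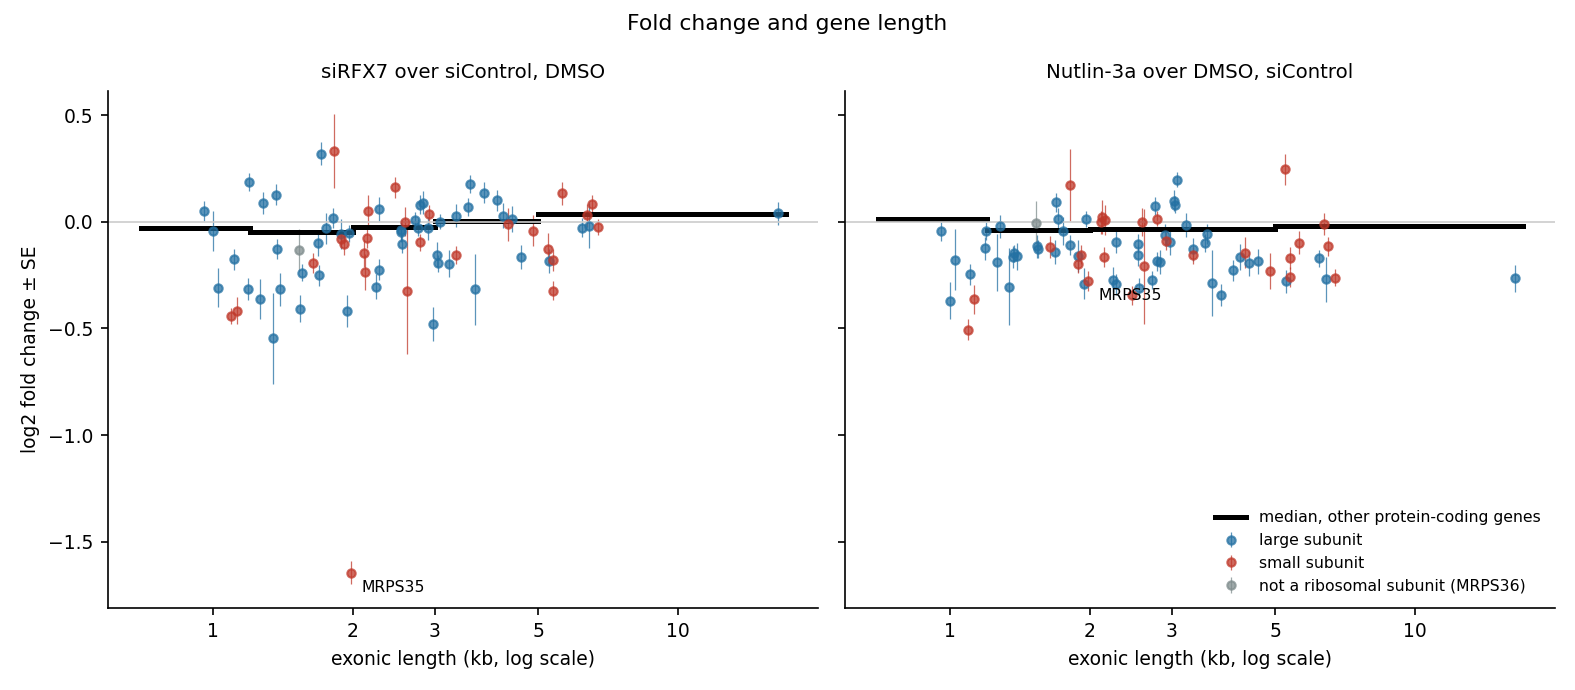
Log2 fold change (y axis, bars of 1 SE) of the 78 genes against exonic length (x axis, kb, log scale), for siRFX7 over siControl under DMSO on the left and Nutlin-3a over DMSO in siControl on the right. Black lines are medians of other protein-coding genes whose base mean was 100 or more in each length range. On the left, genes under 1.2 kb lie mostly below 0 (median -0.24) and those over 5 kb near it (median -0.03); on the right the members lie below the black lines at most lengths.

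Promoters of genes for mitochondrial proteins are known for binding sites of ETS factors such as GABPA, of NRF1 and of YY1. RefSeq promoter windows on GRCh38.p14, from 250 bases before to 50 after a start site, were found for 69 of the 78 genes, 85 windows in all. Each motif was searched on both strands. CCGGAA, the core of ETS sites, was in 54.1% of the 85 windows and in 17.2% of all 35116. AAGATGG, the YY1 core, was in 31.8% and 5.84%, and TGCGCA, the core of NRF1 sites and its own reverse complement, in 20% and 8.24%. GTTGCCA, a half-site of RFX factors, was in 2.35% of the members' windows and in 4.08% of all. A match describes these letters in this window and is not a binding site. In the authors' deposited table for DMSO, 19 of the 43 genes with the ETS core were lower with siRFX7 (median -0.10) and 8 of the 26 without it (median -0.04). With siRFX7 under Nutlin-3a, 16 of 43 and 8 of 26 were lower. With Nutlin-3a in siControl, 20 of 43 and 14 of 26 were lower, with medians of -0.14 and -0.16. With Nutlin-3a in siRFX7, 17 of 43 and 17 of 26 were lower, with medians of -0.13 and -0.19, so here the larger share was without the core. For YY1 the siRFX7 counts under DMSO went the other way from those of the ETS core under DMSO, with 7 of 24 lower with the motif and 20 of 45 without it. For the NRF1 core they were 7 of 15 and 20 of 54, and for the RFX half-site 0 of 2 and 27 of 67. The differences between genes with and without a motif were not tested.

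Shown are the windows of MRPS34, lower in all 4 of the authors' deposited tables, and of MRPL45, higher in both knockdown tables, in the direction of the gene. Capitals mark ETS, NRF1 and YY1 motifs on either strand. The MRPS34 window (chr16:1773085-1773384, minus strand, GRCh38.p14) holds 3 ETS cores and no other motif of the set. The MRPL45 window (chr17:38296918-38297217, plus strand) holds 1 NRF1 core and 1 YY1 core and no ETS core.
MRPS34: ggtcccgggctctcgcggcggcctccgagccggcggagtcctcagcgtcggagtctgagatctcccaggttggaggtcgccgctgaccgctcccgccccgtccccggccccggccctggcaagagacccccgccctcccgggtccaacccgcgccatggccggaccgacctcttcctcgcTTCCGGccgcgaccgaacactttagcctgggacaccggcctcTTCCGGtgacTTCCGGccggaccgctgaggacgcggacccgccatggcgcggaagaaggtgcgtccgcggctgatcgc
MRPL45: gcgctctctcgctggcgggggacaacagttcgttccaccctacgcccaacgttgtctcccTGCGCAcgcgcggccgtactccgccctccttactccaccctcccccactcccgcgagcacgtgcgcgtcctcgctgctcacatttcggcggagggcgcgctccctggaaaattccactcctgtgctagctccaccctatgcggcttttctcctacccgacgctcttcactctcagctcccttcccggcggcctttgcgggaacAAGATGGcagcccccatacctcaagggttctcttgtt

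Other genes of mitochondrial translation were taken as 6 lists. In the tables deposited by the authors, their counts stand beside 17.5% lower and 19.9% higher of all genes with siRFX7 under DMSO. Under Nutlin-3a the shares with siRFX7 were 15.4% and 17.2%. With Nutlin-3a they were 19.6% and 18.3% in siControl and 20.3% and 18.7% in siRFX7. Among genes whose base mean was 100 or more, the siRFX7 shares were 22.6% and 27.1% under DMSO and 20.6% and 24.6% under Nutlin-3a. For Nutlin-3a those genes gave 31.6% and 24.7% in siControl and 31.5% and 24.8% in siRFX7. The 5 mitoribosomal proteins without an MRP symbol behaved unevenly. GADD45GIP1, a large subunit protein at the tunnel exit also known as CRIF1, was lower in all 4 of the authors' deposited tables, at -0.36 ± 0.07 (SE; DESeq2 adjusted p = 5.7e-06) and -0.43 ± 0.06 (adjusted p = 1.97e-11) with siRFX7 under DMSO and Nutlin-3a. AURKAIP1, of the small subunit, was also lower in all 4, at -0.26 ± 0.05 under DMSO. DAP3, a GTP-binding small subunit protein, was higher with siRFX7 under DMSO by 0.11 ± 0.05, and PTCD3 under Nutlin-3a by 0.13 ± 0.05. With Nutlin-3a in siControl 4 of 5 were lower.

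Assembly factors and rRNA modifying enzymes held the largest knockdown values of the 6 lists. The authors' deposited tables called 5 of 28 lower and 8 higher with siRFX7 under DMSO, and 7 of 28 each way in the presence of Nutlin-3a. The DMSO counts are near the shares of all genes. RBFA, which binds the maturing small subunit, was lower, at -1.05 ± 0.08 (SE; DESeq2 adjusted p = 1.9e-36) and -0.79 ± 0.09 (adjusted p = 2.29e-17). MTERF3 was lower, at -0.43 ± 0.08 under DMSO in the authors' deposited table. These 2 of the 28 hold the heptamer in the 3′ UTR, a share near the 7.82% of the 13755 genes. It had been picked from these same fold changes. NGRN, a regulator of the large subunit rRNA, was higher by 0.77 ± 0.05 and 0.81 ± 0.06, and MALSU1, a factor of large subunit assembly, by 0.48 ± 0.06 and 0.34 ± 0.08. With Nutlin-3a 13 of 28 fell and 1 rose in each background.

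Among 16 translation factors the authors' deposited tables called 4 lower and 2 higher with siRFX7 under DMSO, and 3 each way in the presence of Nutlin-3a. The initiation factor MTIF2 was at -0.29 ± 0.05 (SE) and -0.18 ± 0.05, the elongation factor TUFM at -0.13 ± 0.03 and -0.24 ± 0.04, and the release factor MTRF1L at 0.47 ± 0.08 and 0.49 ± 0.09. With Nutlin-3a 6 and 5 of 16 were lower. The lower counts of this list, in all 4 tables, are near the shares of genes that reach the base mean limit given above. Among 20 genes of mitochondrial aminoacyl-tRNA synthesis 4 fell and 5 rose with siRFX7 under DMSO, and 1 fell and 4 rose in the presence of Nutlin-3a. The DMSO counts of this list, too, are near the shares of all genes. GATC, a subunit of the enzyme that makes glutaminyl-tRNA in mitochondria, was higher by 0.53 ± 0.05 and 0.57 ± 0.06 in the authors' deposited tables, while GATB, another subunit, was lower, at -0.31 ± 0.07 and -0.19 ± 0.07. With Nutlin-3a 7 of 20 were lower and 1 higher in siControl, and 5 and 3 in siRFX7.

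Of 12 regulators of mitochondrial DNA transcription and of nuclear genes for mitochondria, 3 fell and 3 rose with siRFX7 under DMSO, and 3 fell and 4 rose in the presence of Nutlin-3a. The DMSO counts are near the shares of genes that reach the base mean limit given above. GABPB1, the partner of GABPA, was at -0.29 ± 0.05 (SE) and -0.28 ± 0.06, and the coactivator PPRC1 at 0.28 ± 0.05 under each treatment, in the authors' deposited tables. With Nutlin-3a, 8 of 12 fell in siControl and 6 in siRFX7. NRF1 had the most negative values, -0.57 ± 0.07 (DESeq2 adjusted p = 3.34e-14) and -0.65 ± 0.07 (adjusted p = 3.03e-19), and PPRC1 had -0.44 ± 0.05 in each background, in the authors' deposited tables.

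The 15 listed genes of mitochondrial DNA, which supply the RNAs that these ribosomes hold and translate, were higher wherever they were called. With siRFX7 the authors' deposited tables called 12 of 15 higher under DMSO and 7 of 15 under Nutlin-3a, and 0 lower in either. The medians were 0.28 and 0.36. All 15 lie on mitochondrial DNA, so they are not independent of one another and the counts are not 15 separate results. With Nutlin-3a 2 of 15 rose in siControl and 13 of 15 in siRFX7, with medians of 0.24 and 0.33, and the difference was called for 0 of 15 (0 at an unadjusted p under 0.05). MT-RNR2, the large subunit rRNA, rose with siRFX7 by 0.61 ± 0.06 (SE; DESeq2 adjusted p = 2.43e-23) and 0.71 ± 0.14 (adjusted p = 4.35e-06), and MT-RNR1, the small subunit rRNA, by 0.46 ± 0.06 and 0.49 ± 0.06. These transcripts were caught in poly(A) libraries, and whether their poly(A) tails or their amounts differed cannot be told apart.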

How the data were processed

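The 16 libraries of stranded poly(A) RNA were grouped by title. Per the submitters' processing notes, reads were processed with bcl2fastq 2.19.1.403, Trimmomatic 0.39, cutadapt 2.10, SAMtools 1.10 and featureCounts 1.6.5 on hg38, and compared with DESeq2 1.20.0. The aligner, annotation, strand setting and fold change shrinkage are not given in the sources used here. The deposited base means are a signal, the authors' mean normalised counts. The authors' log2 fold changes and SEs, p-values and adjusted p-values were used as deposited, and the deposited Wald score for checks. Benjamini-Hochberg adjustment over a table gave the deposited adjusted p to within 1.5e-15. Total read counts per library are not in the tables, so depth is known only through base means and SEs.

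The difference of the Nutlin-3a responses was the siRFX7 value minus the siControl value on the log2 scale, over the root of the summed squared SEs, tested on simulated data first. Table directions were taken from RFX7, CDKN1A and MDM2. Positions, exonic lengths and transcripts came from GENCODE 29, in which all 78 members matched by identifier. Python 3.11.15, pandas 2.3.3, numpy 2.4.6, scipy 1.17.1 and matplotlib 3.10.9 were used. The members, gene lists, motifs and tests were chosen with earlier results of these data known. Named genes were MRPS35, the 3 most negative and 3 most positive called members of each comparison, members with a motif in the 3′ UTR, the 3 highest and 3 lowest per kb, and the most extreme called genes of each list; others illustrate a class and were chosen after their values were seen.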

Additional observations from a re-analysis of the deposited data

Results flagged for a closer look

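The Nutlin-3a response of CDKN1A, used here as a check of direction and not a member, differed between siRFX7 and siControl. The difference of the authors' deposited log2 fold changes was -0.26 ± 0.05 (SE; adjusted p = 0.000305 over all genes, two-sided normal test), from 3.24 in siControl to 2.98 in siRFX7. The level of CDKN1A was higher with siRFX7 under both treatments, by 0.60 ± 0.04 (SE) under DMSO and 0.33 ± 0.04 under Nutlin-3a. Its smaller response thus went with a higher level under DMSO, and its level under Nutlin-3a was 126% of that in siControl. The test of the difference called 0 of the 78 members, with 5 at an unadjusted p under 0.05, beside 6.32% of all genes.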

How the results depend on the processing

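Counts of members called lower and higher were recomputed with an adjusted p under 0.01, a log2 size of at least 0.25, a base mean of at least 100, values centred on the median over genes whose base mean was 100 or more, and members with no exonic base shared on their strand, the last chosen after seeing the data. Requiring a size of 0.25 gave 14 lower and 1 higher with siRFX7 under DMSO, 12 lower and 2 higher under Nutlin-3a, and, with Nutlin-3a, 16 lower and 0 higher for siControl and 13 lower for siRFX7. At an adjusted p under 0.01 the higher count with siRFX7 under DMSO became 4. Centring took the higher count for Nutlin-3a in siControl to 6. For these the fewer or shifted values of the alternative itself set the change. The other 48 counts and values kept their direction and stayed within 1.5 times the value reported, among them all those of MRPS35. No paired analysis was possible because the tables hold no value of a single library; leaving out a replicate could not be run for the same reason. The members' SEs, from 0.04 to 0.34 on the log2 scale in the authors' deposited tables, limit what could be called. MRPS24 and MRPL53 had the widest in each table. MRPL12 came next with siRFX7 under Nutlin-3a, at 0.19, and MRPL38 and MRPS28 were wider than MRPL12 in the others.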
